A study of Moxostoma hubbsi with 18 samples.

Results

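The solute carrier family SLC25 was examined in whole copper redhorse larvae (Moxostoma hubbsi), an endangered freshwater fish, through the counts of 26 features. These are all features of the deposited series table whose identifiers lie between K15084 and K15124, the range of KEGG ortholog numbers given for this family. The range spans 41 identifiers, of which 26 have a row in the table, and the table holds 9645 features in all. The features were taken by identifier, whatever their values, but the range was proposed with earlier results of these data known. All 26 are also in the sample files, and all 26 passed the low-count filter and were tested. The files pair no identifier with a gene name, a position or a length. Whether each identifier in the range stands for a carrier of this family was not checked, and no feature is given a gene name or a role. Features are ranked by counts, summed and given as shares of counts. With no lengths known, these values do not show which feature has more RNA molecules.

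The larvae had been raised in river water or in laboratory water, the control, and were taken at 14 days after fertilization. Each group had 9 libraries, and each library was made from 5 whole larvae. The labels do not say how the pools were divided among tanks, families or spawnings, and p-values rest on the spread among these pools, some of which may be technical. Every value pools all tissues of the larvae, in which fewer cells of a type and less RNA per cell cannot be told apart. Total counts ranged from 14868181 to 20095604 in river water and from 15893484 to 20584727 in laboratory water. Over the whole table, the median Spearman correlation of a library with the rest of its group was 0.956 for river water replicate 1, 0.988 for river water replicate 6 and 0.992 to 0.996 for the others, and values without these libraries are given for the named features.

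Mitochondrial carriers of this family sit mostly in the inner mitochondrial membrane, which is otherwise closed to most charged metabolites. They are encoded in the nucleus, and between them they move nucleotides, phosphate, organic acids, amino acids, acylcarnitines and cofactors between the cytosol and the matrix. Some members instead let protons leak back and lower the yield of ATP. In fish larvae, muscle, liver, gut and gill all depend on such exchange, so RNA of the family in a whole larva has many sources.

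The comparison asked which of these features differed between river water and laboratory water. Of the 26 features, 2 were higher and 2 were lower in river water by edgeR's quasi-likelihood test (adjusted p under 0.05, with Benjamini-Hochberg adjustment over 9008 features). K15103 and K15122 rose, and K15109 and K15110 fell. The 4 features are 15.4% of the 26, against 6.27% of all 9008 features called. The 2 higher features are 7.69% of the 26, against 2.13% called higher over the whole table, and the 2 lower features are likewise 7.69%, against 4.14% called lower. With so few features, in a set proposed with earlier results of these data known, these shares are only a description. Identifiers K15122 to K15124, at the end of the range, may stand for genes outside the family. Without those 3, chosen after their values were seen, 3 of 23 features passed, or 13.0%, with 1 higher and 2 lower. Without river water replicate 1, 5 of the 26 features passed, the 4 and K15102, against 10.9% of all features tested, and without replicates 1 and 6 the same 4 passed, against 11.5%. At an unadjusted p under 0.05 there were 8 of the 26 features, or 30.8%, against 23.7% of all features.

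**Figure D1:**
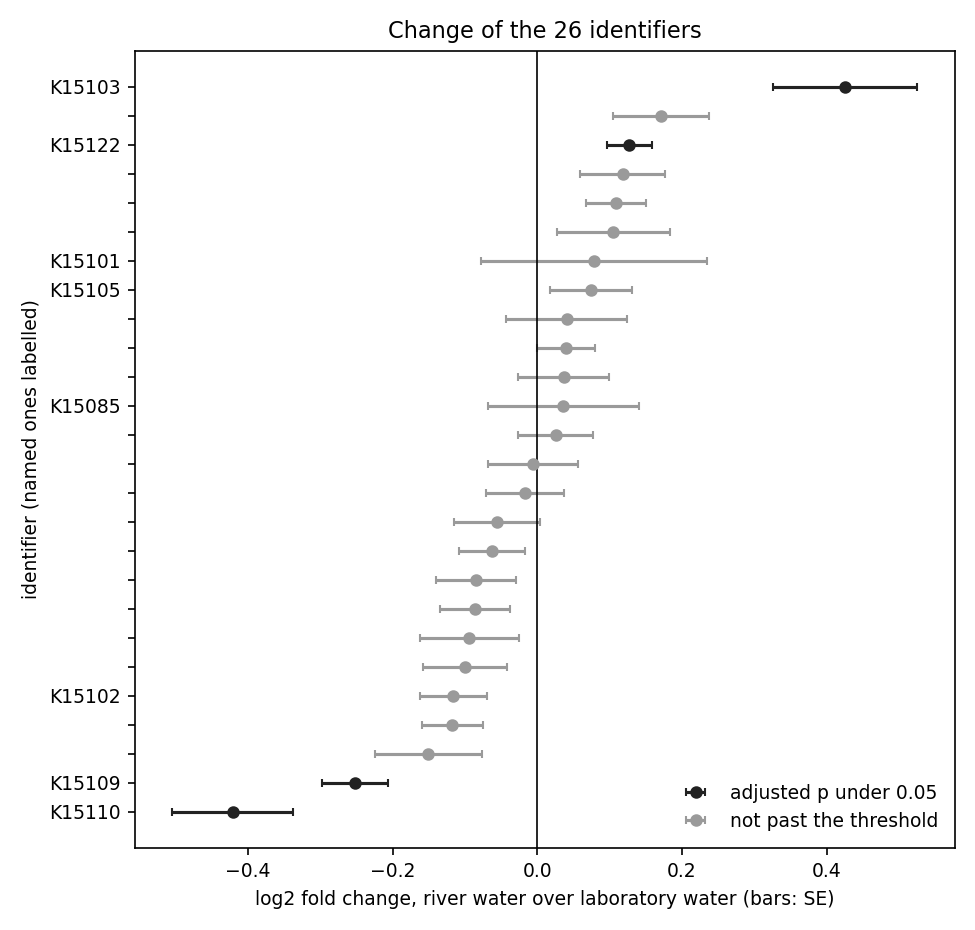
Log2 fold change of river water over laboratory water for each of the 26 features, sorted by size, with bars for the standard error; black points passed an adjusted p of 0.05 and grey points did not. K15103 lies at 0.43 and K15110 at -0.42, while the 22 grey points lie between -0.15 and 0.17.

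K15103 had the largest rise of the 26 features. Its level in river water had a minimum of 277.9, a median of 376 and a maximum of 538 CPM (counts per 1000000, with library totals scaled by TMM, a trimmed mean of log ratios), against a minimum of 268, a median of 281 and a maximum of 336 CPM in laboratory water. In river water 7 of the 9 libraries lay above the highest laboratory library, and replicates 2 and 8 lay within the laboratory range. The mean was 399 ± 83.2 CPM in river water and 297 ± 25.1 CPM in laboratory water (SD, n = 9 each). This is a 1.34-fold difference, or 0.43 ± 0.10 (SE) on the log2 scale (adjusted p = 0.0151, edgeR).

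The rise of K15103 came with a wider spread between river water pools. The coefficient of variation was 20.8% in river water and 8.46% in laboratory water, where counting error alone would give 1.19% and 1.36%. The highest river water library in scaled levels was replicate 1, with 538 CPM, and the other 8 averaged 382 ± 69.2 CPM (SD). Its TMM factor was 0.872, against 0.955 to 1.09 in the other libraries, and a low factor raises scaled levels. Relative to total counts, replicates 5 and 6 were higher. The counts were 6979 of 14868181 in replicate 1, 8954 of 18143058 in replicate 5 and 8301 of 16636630 in replicate 6. Leaving replicate 1 out gave a log2 fold change of 0.37 (adjusted p = 0.0137, edgeR), and leaving out replicates 1 and 6 together gave 0.32 (adjusted p = 0.0268, edgeR). K15103 made up 12.5% ± 2.08 of the counts of the 26 features in river water and 9.20% ± 0.597 in laboratory water (SD, n = 9 each). This share does not depend on how libraries are scaled, but it does depend on the counts of the other features.

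K15122 rose by a small amount with little spread. It had 80.7 CPM in the lowest river water library, a median of 84.4 and a maximum of 90.4 CPM, against a minimum of 72.3, a median of 78.6 and a maximum of 81.2 CPM in laboratory water. Only river water replicate 6, the lowest of its group, lay inside the laboratory range, and 9 of 9 exceeded the mean of laboratory water. The mean was 85.1 ± 3.17 CPM in river water and 77.9 ± 2.59 CPM in laboratory water (SD, n = 9 each). On the log2 scale the difference was 0.13 ± 0.031 (SE; adjusted p = 0.0184, edgeR).

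For K15122 the coefficient of variation between pools was 3.72% in river water and 3.33% in laboratory water, above the 2.56% and 2.66% that counting alone would give. The size of the difference moved little between settings, but its call did not hold in all of them. The call held with median-ratio scaling (log2 difference 0.13, adjusted p = 0.0179, edgeR) and upper-quartile scaling (0.13, adjusted p = 0.0177, edgeR), and not with total counts and no scaling factor (0.15, adjusted p = 0.0558, edgeR). It was also lost after summing counts within each file number (0.13, adjusted p = 0.108, edgeR) and with the replicate number as a block (0.13, adjusted p = 0.0546, edgeR). Without river water replicates 1 and 6 the adjusted p was 0.00555 (edgeR).

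**Figure D2:**
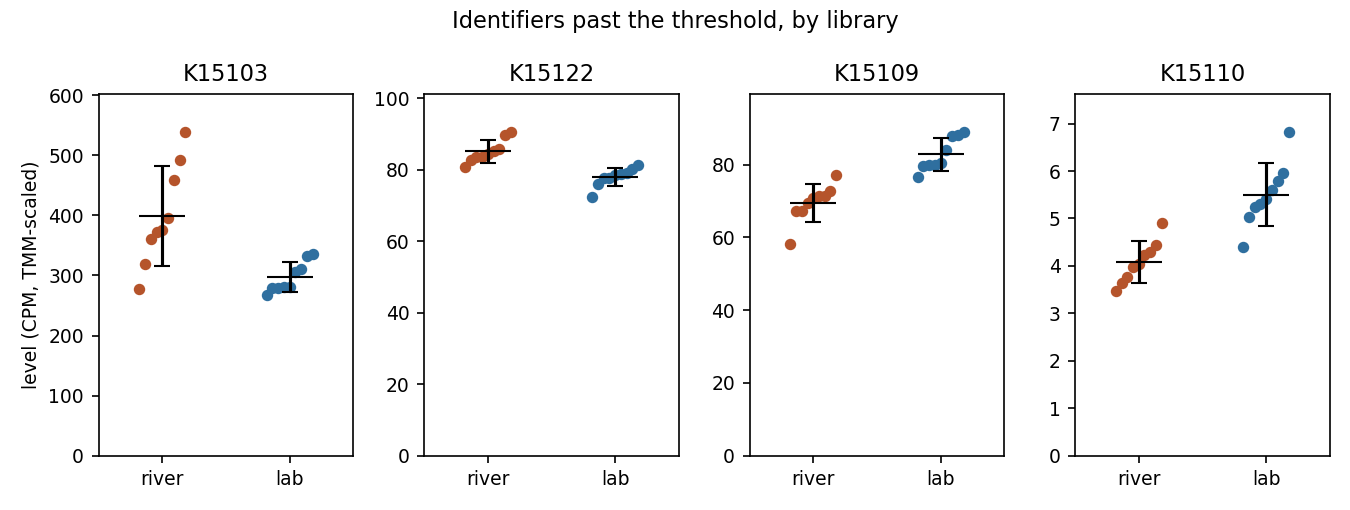
Level in CPM of the 4 features that passed the threshold, 1 point per library, with river water left and laboratory water right in each panel; the black bar is the mean and the whiskers 1 SD (n = 9 each). K15103 and K15122 are higher in river water and K15109 and K15110 lower, and in each panel at least 1 library overlaps with the other group.

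K15109 had the smallest p of the 26 features and was lower in river water. Its levels there had a minimum of 58.1, a median of 70.9 and a maximum of 77.2 CPM, against a minimum of 76.6, a median of 80.5 and a maximum of 88.9 CPM in laboratory water. Of the river water libraries 8 lay below the lowest laboratory library. The exception, replicate 5, was above only the lowest laboratory library, replicate 4. The means were 69.5 ± 5.24 CPM in river water and 82.8 ± 4.51 CPM in laboratory water (SD, n = 9 each). The river water level was 0.84 times the laboratory level, or -0.25 ± 0.046 (SE) on the log2 scale (adjusted p = 0.00333, edgeR).

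The fall of K15109 was deepest in river water replicate 1, at 58.1 CPM, where the other 8 river water libraries had 67.3 to 77.2 CPM. Without replicate 1 the log2 difference was -0.22 (adjusted p = 0.000621, edgeR), and without replicates 1 and 6 it was -0.21 (adjusted p = 0.00114, edgeR). K15109 held 2.19% ± 0.21 of the counts of the 26 features in river water and 2.57% ± 0.0781 in laboratory water (SD, n = 9 each).

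K15110 had the largest fall and the fewest counts of the 26 features, 1557 over all 18 libraries. Its level had a minimum of 3.47, a median of 4.04 and a maximum of 4.90 CPM in river water, against a minimum of 4.39, a median of 5.41 and a maximum of 6.82 CPM in laboratory water. Of the river water libraries 9 of 9 were under the mean of laboratory water, and 7 were under its lowest library. The means were 4.08 ± 0.44 CPM in river water and 5.50 ± 0.672 CPM in laboratory water (SD, n = 9 each). The river water level was 0.747 times that of laboratory water, or -0.42 ± 0.084 (SE) on the log2 scale (adjusted p = 0.00572, edgeR).

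With 45 to 113 counts per library, K15110 is the feature whose values are most limited by depth. Counting error alone gives a coefficient of variation of 11.7% in river water and 10.03% in laboratory water, and the values observed between pools were 10.8% and 12.2%. The call was lost after summing counts within each file number (log2 fold change -0.41, adjusted p = 0.0623, edgeR). Leaving out river water replicates 1 and 6 gave -0.38 (adjusted p = 0.00787, edgeR).

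None of the 26 features had groups that did not overlap at all, a pattern that 0.888% of all tested features showed. The deposited file names carry a number from 1 to 3 whose meaning is not given in the labels, and the 4 features were compared again within each number, with 3 river water and 3 laboratory water libraries. K15103 had log2 fold changes of 0.51, 0.53 and 0.21 in numbers 1, 2 and 3, and K15122 had 0.099, 0.16 and 0.12. K15109 had -0.35, -0.20 and -0.21, and K15110 had -0.28, -0.49 and -0.50. All 4 features thus kept their sign within every number. K15109 within number 3 passed the test there (adjusted p = 0.0409, edgeR), and the other 11 within-number values did not. Of all features tested, 0 of 9017 were called within number 1 and 5 of 9012 (0.0555%) within number 2. Within number 3 it was 276 of 9006 (3.06%). With so few calls over all features in numbers 1 and 2, a missed threshold there is not particular to these 4 features. Number 1 includes river water replicate 1, and once that library was left out K15103 had 0.27, K15122 0.11, K15109 -0.27 and K15110 -0.20 there. These libraries are those of the main comparison, so their signs give no separate evidence.

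**Figure D3:**
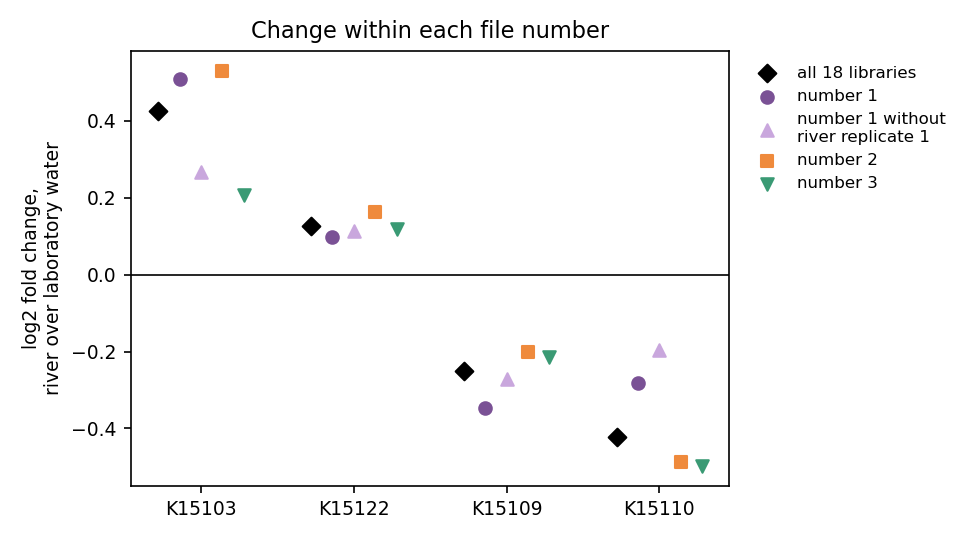
Log2 fold change of river water over laboratory water for the 4 features past the threshold, over all 18 libraries and within each number of the file names. Points of K15103 and K15122 lie above 0 and points of K15109 and K15110 below 0; K15103 ranges from 0.21 to 0.53.

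The other 22 features did not pass the test. Their log2 fold changes were -0.15 to 0.17, with standard errors of 0.040 to 0.16, and 11 had a positive and 11 a negative value. Without river water replicates 1 and 6 the same 22 lay between -0.12 and 0.16. Their adjusted p lay between 0.0995 and 0.967 (edgeR), and 4 of them had an unadjusted p under 0.05, 2 higher and 2 lower. A missed threshold does not show that a feature was the same in both waters. In simulated river against laboratory water data over 9008 features, 55.2% of those changed 1.2-fold were recovered, so differences of the size seen here could be missed.

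The feature with the most counts was K15102. It had a minimum of 1369, a median of 1543 and a maximum of 1724 CPM in river water, against a minimum of 1544, a median of 1639 and a maximum of 1799.9 CPM in laboratory water. In river water 5 libraries lay below the lowest laboratory library, and 8 of 9 lay below the laboratory mean. The exception was replicate 1, which was the highest river water library in these scaled levels. Its TMM factor of 0.872, the lowest of all libraries, raises its scaled levels. Relative to total counts it was not the highest. It had 22348 of 14868181 counts, against 29729 of 18143058 in replicate 5 and 32076 of 20095604 in replicate 4. The means were 1537 ± 103 CPM in river water and 1666 ± 95.9 CPM in laboratory water (SD, n = 9 each). The log2 difference was -0.12 ± 0.046 (SE; adjusted p = 0.134, edgeR).

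K15102 did not pass in the main comparison, and in a few alternatives it did. Without river water replicate 1 the log2 difference was -0.14 and passed (adjusted p = 0.0378, edgeR), while without replicates 1 and 6 together it was -0.12 and did not (adjusted p = 0.0574, edgeR). It also passed with total counts and no scaling factor (adjusted p = 0.0294, edgeR) and in limma-voom with quality weights (adjusted p = 0.0362). In no other setting did it pass, and with the replicate number as a block its adjusted p was 0.238 (edgeR). Its share of the counts of the 26 features was 48.2% ± 1.48 in river water and 51.6% ± 1.14 in laboratory water (SD, n = 9 each). Shares of the 26 features add up to a fixed whole, so a change in 1 feature shifts the shares of the others. The smaller share of K15102 and the larger share of K15103 in river water are therefore not separate results.

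K15105 was next in counts among the features that did not pass. Its level was 193 to 267 CPM with a median of 226 CPM in river water, and 197 to 235 CPM with a median of 209 CPM in laboratory water. River water replicates 5, 7 and 9 lay above every laboratory library, and replicate 6 lay below every one. The means were 225 ± 23.8 CPM in river water and 214 ± 12.8 CPM in laboratory water (SD, n = 9 each), a log2 difference of 0.074 ± 0.057 (SE; adjusted p = 0.439, edgeR). With 1 library left out it was lowest at 0.040, where river water replicate 5 was omitted, and highest at 0.0998, where replicate 6 was omitted, and it was 0.11 without replicates 1 and 6.

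K15085 and K15101 had the widest spread between laboratory water pools among the features that did not pass. K15085 had 5.09 to 9.07 CPM with a median of 6.96 in river water and 5.67 to 8.70 CPM with a median of 6.94 in laboratory water, and its log2 fold change was 0.036 ± 0.10 (SE; adjusted p = 0.869, edgeR), or 0.034 without river water replicates 1 and 6. K15101 had 2.93 to 9.90 CPM with a median of 6.27 in river water and 4.58 to 6.88 CPM with a median of 5.79 in laboratory water. In both features river water replicate 1 was the lowest and replicate 6 the highest of the group.

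K15101 is the feature in which those libraries stand out most. Replicate 1 had 2.93 CPM and replicate 6 had 9.90 CPM, where the other 7 river water libraries had 4.53 to 7.07 CPM. The coefficient of variation was 33.8% in river water and 12.8% in laboratory water, against 9.66% and 9.88% from counting alone. The log2 difference was 0.078 ± 0.16 (SE; adjusted p = 0.799, edgeR), 0.16 without replicate 1, -0.047 without replicate 6 and 0.031 without either.

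**Figure D4:**
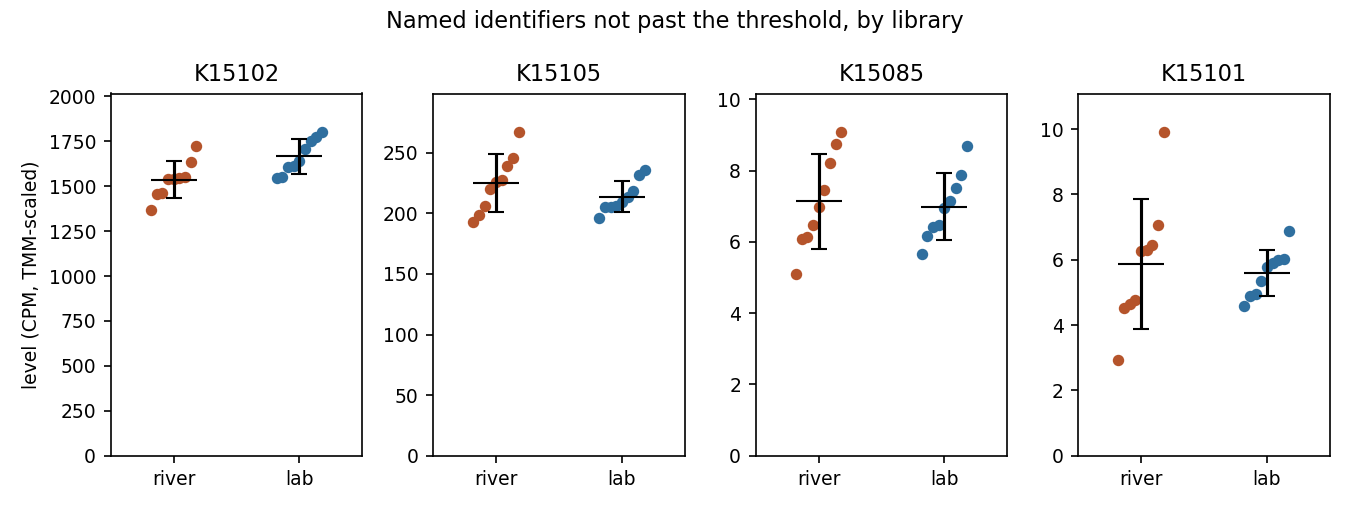
Level in CPM of 4 features that did not pass the threshold, 1 point per library, with river water left and laboratory water right; the black bar is the mean and the whiskers 1 SD (n = 9 each). K15102 averages 1537 CPM in river water and 1666 CPM in laboratory water, and K15101 spreads from 2.93 to 9.90 CPM in river water.

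The centre of the 26 features lay close to that of all features. The median log2 fold change over the 26 features was 0.0098, against 0.0090 over all 9008 tested, and the median size without regard to sign was 0.090, against 0.086. The levels of the 26 features summed to between 2963 and 3522 CPM with a median of 3182 CPM in river water, and to between 3073 and 3467 CPM with a median of 3157 CPM in laboratory water. The means of the sums were 3186 ± 202 CPM in river water and 3229.9 ± 150.1 CPM in laboratory water (SD, n = 9 each), and the river water range spans that of laboratory water. The sum without K15102 averaged 1650 ± 119 CPM in river water and 1564 ± 70.0 CPM in laboratory water (SD, n = 9 each). The counts of all 26 features, K15102 included, are 0.294% to 0.350% of all counts in river water libraries and 0.312% to 0.338% in laboratory water libraries.

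River water pools differed from each other more than laboratory water pools did in 20 of the 26 features, by the coefficient of variation. Its median over the features was 9.12% in river water and 7.47% in laboratory water. This count rests in part on the libraries that stand apart: it was 19 without river water replicate 1, 18 without replicate 6 and 14 without both, where the river water median was 8.64%. The same count was not made over all tested features, so a wider river water spread is not shown to be particular to these 26. In scaled levels, river water replicate 1 was the lowest river water library for 8 features and the highest for 5. It was more than 1.5-fold below the average of the remaining 8 for 2 features and more than 1.5-fold above it for 0. Replicate 6 was the highest for 5 features and the lowest for 5, and more than 1.5-fold above the mean of the others for 1, K15101.

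**Figure D5:**
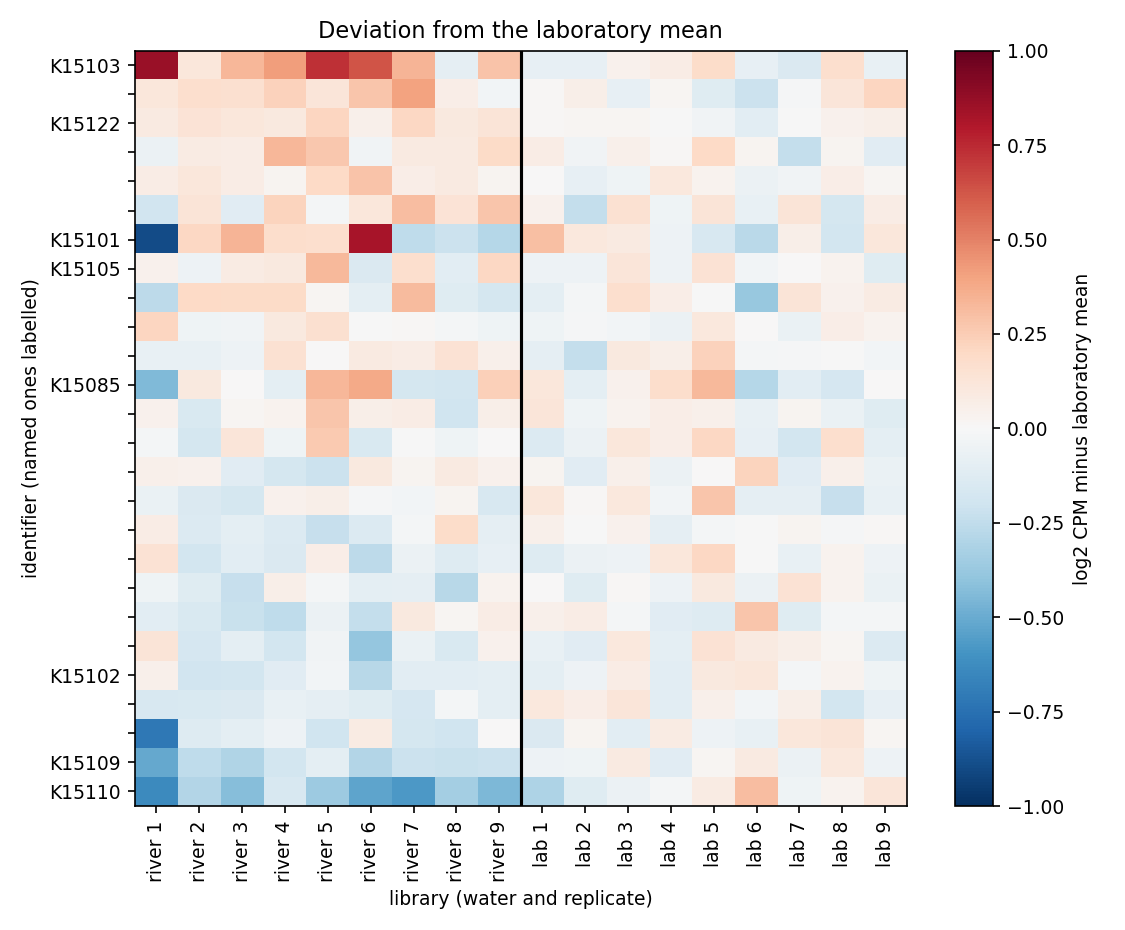
Deviation of each feature in each library from its laboratory water mean, in log2 CPM, with river water libraries left of the black line and laboratory water libraries right of it; features are sorted by fold change and the named ones are labelled. Of the river water libraries 8 of 9 exceed the laboratory mean of K15103, and K15109 and K15110 are below it in 9 of 9.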

How the data were processed

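RNA of 18 libraries of pooled larvae was counted by the authors. The deposited files hold raw counts per identifier, as whole numbers. The sources used here name no aligner, sequence database or counter, and the submitters' processing notes name edgeR. An identifier may pool related genes, so opposite changes of paralogs can be hidden. The sample files (9025 features) were used, and 0 values differ from the series table.

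Groups come from the sample titles. In R 4.3.3 with edgeR 4.0.16, the default low-count filter (minimum count 10, minimum total 15) left 9008 features. Libraries were scaled by TMM and compared with the robust quasi-likelihood test, with water as the only term and adjustment over all 9008 features. The SE was taken as the size of the log2 difference over the root of its F statistic. CPM uses TMM-scaled totals, and log2 CPM a prior count of 2. In simulated data for river against laboratory water over 9008 features, 91.0% of features changed 1.5-fold were recovered, with 10 false calls among 172. The simulated libraries were independent, with the same dispersion of a feature in both waters and no library that stood apart. The rates may therefore not hold for the libraries studied. No library was the same library sequenced again: over 153 pairs the lowest chi-square per degree of freedom was 4.20. This cannot tell whether separate libraries were prepared from the same pool of larvae.

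The features named are, of those that passed, up to 2 with the smallest p in each direction, and, of the rest, the 2 with the most counts and the 2 with the largest laboratory spread. The features and settings were chosen with earlier results of these data known. Lists based on gene names were not used here, since the files pair no names. Alternatives were other scalings, filters and thresholds, DESeq2 1.42.0, limma-voom (limma 3.58.1), blocks, sums by file number and left-out libraries.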

Additional observations from a re-analysis of the deposited data

How the results depend on the processing

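The 4 features kept their sign under all alternatives run. All 4 passed with any 1 library left out (adjusted p at most 0.0339, edgeR). K15103 and K15109 passed in every other setting too, apart from fits within file numbers. K15122 lost its call with total counts only, summed counts and the replicate block, and K15110 with summed counts, as given above. The number of higher features was 1 under these 3 settings, and the number of lower features was 1 with summed counts. The causes of the lost calls were not tested. Summing leaves 3 samples a group. If libraries with the same file number shared a rearing unit, the 9 libraries of a group would be subsamples of 3 units. The p-values over 9 libraries a group could then be too small. Whether the file numbers mark such units was not tested. With 1 library left out there were 2 higher features and 2 to 3 lower ones. Of all features, 565 were called, against 899 in DESeq2, 1225 in limma-voom when quality weights were used, 311 with summed counts, 1041 without river water replicates 1 and 6, 1022 at an adjusted p of 0.10, and 377 to 979 with 1 library left out, the highest without river water replicate 1. With the replicate block it was 356. Deviations of same-numbered libraries correlated over 0.1 in 4 of 9 pairs (-0.433 to 0.372), and 2 of 18 libraries correlated best with their own number, so the numbers were not taken to pair the libraries. The signs of K15085 (-0.012 to 0.084) and K15101 (-0.047 to 0.16) turned with 1 library left out, and within file numbers K15085 was -0.10 in number 1 and K15101 -0.17 in number 1 and -0.25 in number 3. The median log2 fold change of the 26 features stayed between -0.022 and 0.030, and the log2 ratio of their summed levels between -0.037 and -0.0017. Fits within file numbers, the shorter identifier range and the spread without river water replicates 1 and 6 were added after the data were examined. Depth limits the features under about 100 counts per library most.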

Other observations

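Among the features that did not pass, K15115 and K15118, chosen after their values were seen, had all 9 river water libraries on the same side of the laboratory mean. K15115 had 33.0 to 36.5 CPM with a median of 34.1 in river water, against 32.6 to 40.4 CPM with a median of 38.5 in laboratory water, with a log2 fold change of -0.12 ± 0.042 (SE) and an adjusted p of 0.0995 (edgeR). Without laboratory water replicate 8, its lowest laboratory library, K15115 had -0.14 and passed (adjusted p = 0.0459, edgeR). Leaving out the lowest laboratory value raises the laboratory mean in any case, and K15115 passed with no other single library left out. K15118 had 22.2 to 26.6 CPM with a median of 23.0 in river water, against 20.5 to 23.4 CPM with a median of 21.9 in laboratory water, with a log2 fold change of 0.11 ± 0.042 (SE) and an adjusted p of 0.123 (edgeR). The spread of K15115 was 1.16 CPM in river water and 2.68 CPM in laboratory water (SD, n = 9 each), so it was among the 6 features with the narrower spread in river water. Its coefficient of variation was 3.38% in river water, below the 4.04% that counting alone would give. In laboratory water it was 7.21%, against 3.84% from counting. Dixon's gap test at the 95% level, run on the 9 values per water of each of the 8 features named by rule and of the summed level of the 26, singled out 0 of 18 sets. The test sets a gap against the whole range, so libraries at opposite ends, as in K15101 in river water, can hide each other. A count of 0 therefore does not show that no library stood apart. The features not named by rule were not tested this way. Among them, K15100 had 22.4 CPM in river water replicate 1 and 32.1 to 39.1 CPM in the other river water libraries.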
